A study of Mus musculus with 4 samples.

Results

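The genes described here are 10 secreted or cytosolic inflammatory genes chosen by their measured levels, as leading genes of the authors' class of inflammatory monocytes (Infl_Mono) in these same cells. They are S100a8, S100a9, Saa3, Lcn2, Hp, Prtn3, Chil3, Wfdc21, Lrg1 and Plac8, and all 10 were among the 12584 genes of the count table. Because measured values in Infl_Mono selected them, their levels in the monocyte classes are descriptions and carry no test. Whether the neutrophils (Neutro) were among the cells they were compared with is not known, so counts against Neutro below are descriptions too. The choice bore on comparisons between tumours. The IRF3/7 tumours supplied 4335 of the Infl_Mono cells and the CTRL tumours 93, so genes high in IRF3/7 were favoured.

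CD45+ immune cells were taken from tumours of a mouse melanoma line that carries ovalbumin and has acquired resistance to targeted therapy (YUMM1.7-OVA RTT). All tumours grew in Rag2-/- mice, which have no T or B cells of their own but keep their myeloid and NK cells, and all hosts received OT-1 T cells on day 7 by adoptive transfer (ACT), 72 h before collection on day 10. CTRL tumours carried the mCherry control construct, and IRF3/7 tumours overexpressed Irf3 and Irf7 from an SFFV promoter in cancer cells that were sorted in bulk. COX2i tumours were of the mCherry line and treated with celecoxib, an inhibitor of cyclooxygenase 2. COX2i + 5-AZA tumours were of the same line and received celecoxib and 5-azacytidine, an inhibitor of DNA methylation. Each group was 1 library from a pool of 3 tumours, so a difference between groups has no replicate check and no test was made between them. Intervals below are 95% intervals for counting error only.

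The 4 libraries held 6329 to 10032 cells and 26356819 to 78722763 unique molecular identifiers (UMIs, 1 per counted probe molecule), and IRF3/7 was the shallowest with a median of 3168 UMIs per cell. Of 29259 droplet barcodes, 4830 occurred in more than 1 library, which is possible in this assay because a probe barcode also marks the library. There were 65, 49, 5 and 196 Neutro cells and 93, 4335, 130 and 764 Infl_Mono cells in CTRL, IRF3/7, COX2i and COX2i + 5-AZA. Monocyte_1, a second monocyte class, had 44, 251, 394 and 3640 cells, and the small class Monocyte_3 had 2, 10, 34 and 280. Levels are the UMIs of a gene per 1000000 UMIs of a class in 1 library (CPM), and log2 ratios are ratios of these levels.

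S100a8 and S100a9 form calprotectin, a calcium-binding and zinc-binding alarmin that neutrophils store in their cytosol and release at sites of damage. Saa3 (a serum amyloid A), Hp (haptoglobin, which binds free haemoglobin), Lcn2 (lipocalin 2, which withholds iron from bacteria by binding siderophores) and Lrg1 (a leucine-rich glycoprotein) are acute-phase genes that liver and myeloid cells switch on in inflammation. Prtn3 is a serine protease packed into granules in myeloid precursors, Chil3 (Ym1) a chitinase-like protein of myeloid cells, Wfdc21 a small protein with a whey acidic protein domain, and Plac8 a cysteine-rich protein of leukocytes. Many of these genes are switched on during granulocyte maturation under C/EBP factors.

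On GRCm38, S100a8 (chr3:90668978-90670035, plus strand) and S100a9 (chr3:90692632-90695721, minus strand) lay 22596 bases apart, and the other 8 genes lay elsewhere, Chil3 also on chromosome 3 (chr3:106147554-106167564). RefSeq promoter entries (GRCm38.p6) matched 8 of the 10 genes. No entry was used for Hp and Wfdc21. The S100 pair is shown because its members are neighbours whose ratio differed between neutrophils and monocytes, and Saa3 and Chil3 as 2 of the genes that were not lower in Infl_Mono than in neutrophils of CTRL and IRF3/7, as Plac8 also was. Each line gives the bases upstream of both the RefSeq and the GENCODE start, 5′ to 3′ on the gene's strand, with motif matches in capitals.
S100a8, chr3:90668821-90668977, plus strand: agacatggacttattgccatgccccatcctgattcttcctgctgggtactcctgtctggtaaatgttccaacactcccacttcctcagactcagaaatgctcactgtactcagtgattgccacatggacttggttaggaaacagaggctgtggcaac
S100a9, chr3:90695722-90695971, minus strand: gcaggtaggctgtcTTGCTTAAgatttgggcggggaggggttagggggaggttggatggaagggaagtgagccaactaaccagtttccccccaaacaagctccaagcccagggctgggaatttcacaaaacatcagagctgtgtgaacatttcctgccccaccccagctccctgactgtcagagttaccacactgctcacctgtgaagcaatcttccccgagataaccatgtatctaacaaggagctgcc
Saa3, chr7:46715701-46715926, minus strand: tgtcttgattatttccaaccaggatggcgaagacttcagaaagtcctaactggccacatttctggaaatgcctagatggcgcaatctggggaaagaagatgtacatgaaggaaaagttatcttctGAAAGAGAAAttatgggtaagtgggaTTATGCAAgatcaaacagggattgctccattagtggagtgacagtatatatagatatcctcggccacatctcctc
Chil3, chr3:106167565-106167814, minus strand: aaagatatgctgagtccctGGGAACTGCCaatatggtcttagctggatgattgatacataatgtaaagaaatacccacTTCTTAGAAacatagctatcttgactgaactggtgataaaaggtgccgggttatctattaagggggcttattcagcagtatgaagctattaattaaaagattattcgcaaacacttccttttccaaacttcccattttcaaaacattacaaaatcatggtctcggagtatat
In the 250 bases before the RefSeq start, a C/EBP-like motif (TTGCNNAA, both strands) matched in S100a9 and Saa3, and also in Lcn2 and at 1 of the 2 starts of Plac8. It matched in 9.56% of the 32851 promoters of the same length. Saa3 also held an interferon-response motif (GAAA, any 2 bases, GAAA), present in 2.98% of promoters. Chil3 held a kappaB-like match (GGGA, any 4 bases, CC, in 17.6% of promoters), as Prtn3 did, and a STAT-type match (TTCNNNGAA, 7.02%). S100a8 and Lrg1 held none of the 4 motifs, which says only that these letters are not in that window, and no match is evidence of a bound site.

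The alarmin pair was far higher in neutrophils than in monocytes. S100a8 was at 9539 CPM in Neutro of CTRL, 16092 in IRF3/7, 3913 in the 5 cells of COX2i and 40547 in COX2i + 5-AZA. In Infl_Mono the same gene was at 51.6, 839, 169 and 3556 CPM. Every library was therefore lower in Infl_Mono, by 4.26 (interval 4.20 to 4.32) on the log2 scale in IRF3/7 and by 3.51 (3.48 to 3.54) in COX2i + 5-AZA. S100a9 was at 13027, 19657, 5249 and 46126 CPM in Neutro. In Infl_Mono it was at 14.5, 99.9, 27.8 and 1069.8 CPM. S100a9 thus differed between the 2 classes by more than S100a8 did, with log2 ratios of -7.62 (-7.71 to -7.53) in IRF3/7 and -5.43 (-5.48 to -5.38) in COX2i + 5-AZA.

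**Figure D1:**
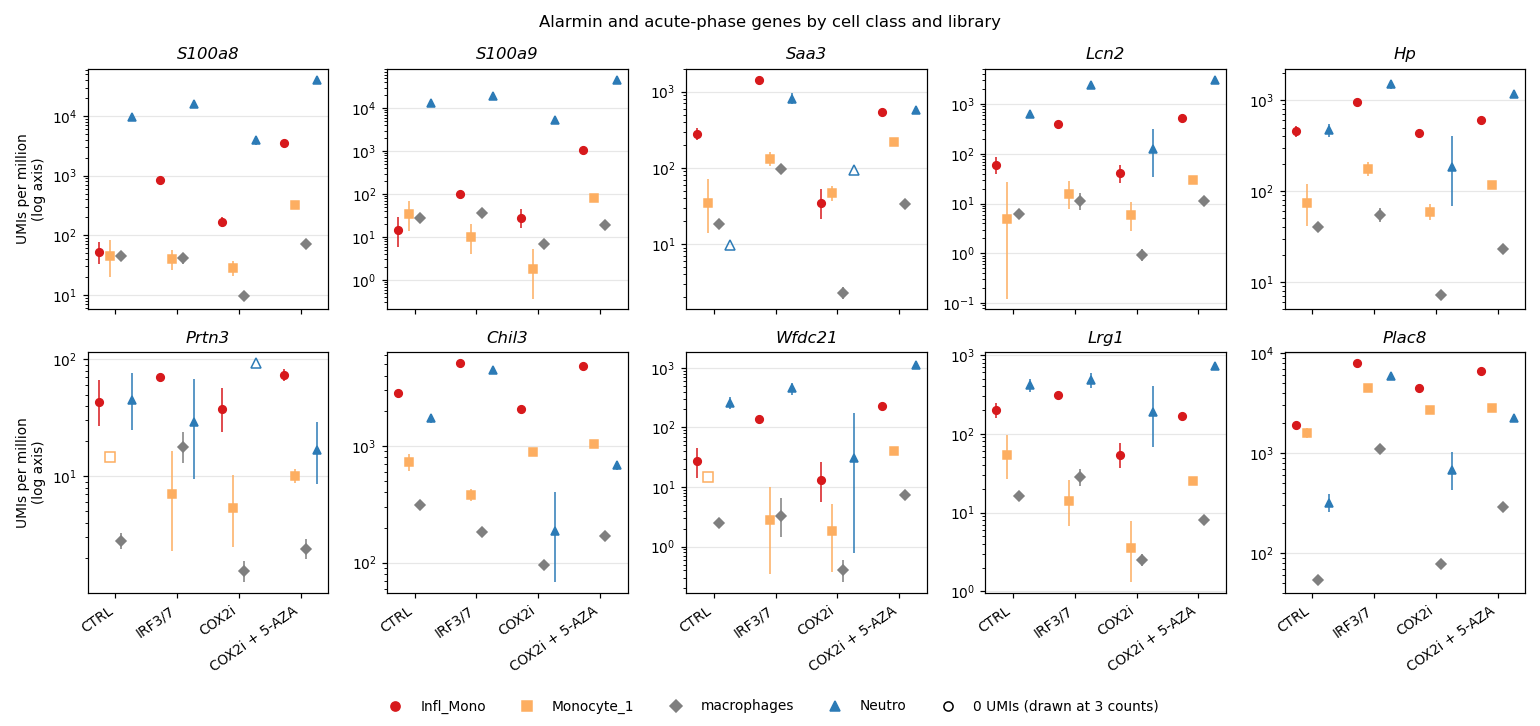
CPM (log axis) of each gene in Infl_Mono, Monocyte_1, all macrophage classes pooled and Neutro, by library, with 95% Poisson intervals. Open symbols mark 0 UMIs and are drawn at the level of 3 counts. In the 3 libraries with at least 20 Neutro cells, neutrophils are the highest of the 4 for S100a8, S100a9, Lcn2 and Wfdc21, and the 5 neutrophils of COX2i held only 4 Lcn2 UMIs and 1 Wfdc21 UMI. Infl_Mono is the highest for Chil3.

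The ratio of S100a8 to S100a9 separated these classes. Probes may capture the 2 genes unequally, so only its differences between classes are read. Neutro held 0.732 S100a8 UMIs per S100a9 UMI in CTRL (0.698 to 0.768), 0.819 in IRF3/7 (0.778 to 0.861) and 0.879 in COX2i + 5-AZA (0.865 to 0.893). Infl_Mono held 8.40 in IRF3/7 (7.95 to 8.87), 6.06 in COX2i (3.61 to 10.8) and 3.32 in COX2i + 5-AZA (3.21 to 3.44). In CTRL the Infl_Mono ratio was 3.57 but rested on 25 and 7 UMIs, with an interval of 1.50 to 9.78. Monocyte_1 of COX2i + 5-AZA was at 4.10 (3.89 to 4.33). In Myofibrobl, the non-immune class, it was 0.705 in CTRL (0.641 to 0.774), close to Neutro, and 10.2 in IRF3/7 (8.54 to 12.4). The whole-macrophage ratio ranged from 1.13 to 3.67 over the 4 libraries. Among the macrophages, TAM_Spp1 was at 3.49 (3.06 to 4.00) in CTRL, 2.03 (1.50 to 2.76) in COX2i and 6.58 (5.67 to 7.68) in COX2i + 5-AZA. A ratio as high as that of Infl_Mono was thus also found in a macrophage class, and in COX2i + 5-AZA that class was above Infl_Mono. The authors drew the classes from the expression of these cells, so the ratio is a description of the classes.

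**Figure D2:**
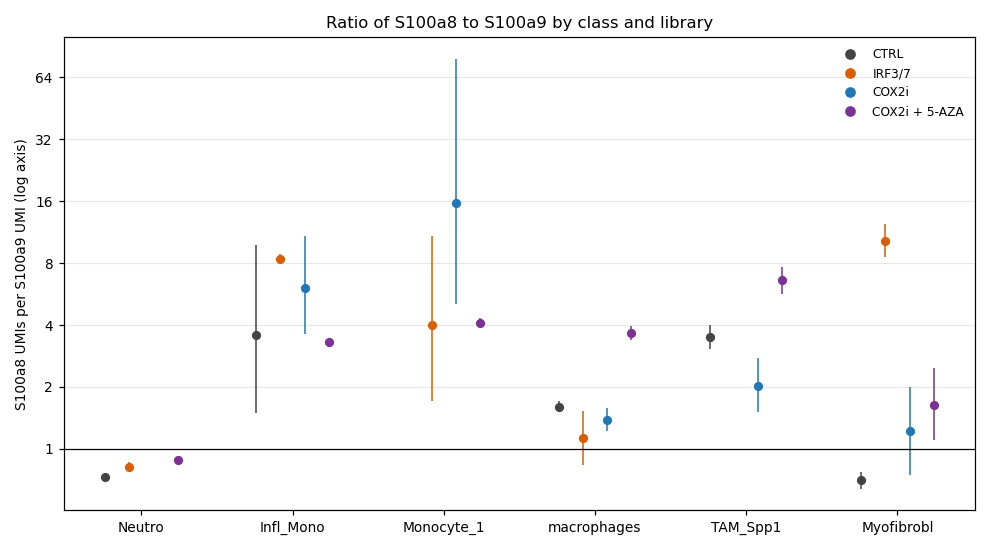
S100a8 UMIs per S100a9 UMI (log axis) by class and library with exact 95% intervals. Classes with fewer than 20 UMIs of the pair or fewer than 20 cells are left out, which includes Neutro of COX2i. Neutro lies below 1 in 3 of 3 libraries drawn and Infl_Mono above 1 in 4 of 4.

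Single cells showed the same split. In IRF3/7, 300 Infl_Mono cells had at least 10 S100a8 UMIs, 162 of them had no S100a9 UMI, and none had as much S100a9 as S100a8. In Neutro of that library, 34 cells had at least 10 S100a8 UMIs, 2 of them had no S100a9, and 26 had at least as much S100a9. In COX2i + 5-AZA the corresponding cells were 219 in Infl_Mono, 53 without S100a9 and 0 with as much S100a9, against 175, 2 and 122 in Neutro. In both libraries no such Infl_Mono cell had as much S100a9 as S100a8, but those of COX2i + 5-AZA still held 4083 S100a9 UMIs beside 13210 S100a8 UMIs. The median depth of the 300 cells of IRF3/7 was 4338 UMIs against 3076 in all Infl_Mono. No Infl_Mono cell of CTRL reached 10 S100a8 UMIs, 0 of 93 cells, which allows a share of up to 3.23%.

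In CTRL, S100a8 of Infl_Mono was not above its level in Myofibrobl, the non-immune class taken for comparison. Whether Myofibrobl cells make S100a8 was not tested. They were at 78.3 CPM in CTRL, 295 in IRF3/7, 3.33 in COX2i and 24.5 in COX2i + 5-AZA, so only Infl_Mono of the last 3 libraries stood above it. S100a9 of CTRL was at 14.5 CPM in Infl_Mono, below the 111 CPM of Myofibrobl. With every cell thinned to 1000 UMIs, 4.3% of Infl_Mono cells of CTRL held an S100a8 UMI (15.1% unthinned), against 2.71% of Myofibrobl (13.9% unthinned, at a median of 15008 UMIs per cell against 4203). In IRF3/7 the thinned shares were 17.0% and 12.8%, in COX2i 10.0% and 0.439%, and in COX2i + 5-AZA 44.0% and 1.88%. Nothing is read from the share in CTRL, and the part of free RNA in it was not tested. The Myofibrobl level came from few cells. Of the 754 S100a8 UMIs in Myofibrobl of CTRL, 664 lay in 8 of its 554 cells, which also held 975 of its 1070 S100a9 UMIs. Of these 8 cells, 7 held at least as much S100a9 as S100a8. In IRF3/7, 1182 of 1321 lay in 23 Myofibrobl cells, 15 of these had no S100a9, and their median depth was 37668 UMIs against 20862.5 in the whole class.

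Over the 3 monocyte classes together, 5 of 10 genes were at least 2-fold lower than in Neutro of CTRL and 2 were higher, against 5.76% of all tested genes lower and 8.32% higher. In IRF3/7 4 were lower and 1 was higher, against 8.49% and 10.7%. In COX2i + 5-AZA 7 were lower and 1 was higher, against 7.26% and 21.6%. Over the pooled classes their median log2 ratios were -0.998, -0.70 and -3.27, and those of all tested genes 0.00, 0.17 and 0.49. Monocyte_1 made up 3640 of the 4684 monocytes of COX2i + 5-AZA. Within Infl_Mono alone, 5 genes were lower and 2 higher in CTRL, against 6.20% and 8.05% of all tested genes. In IRF3/7 they were 4 and 1, against 8.71% and 10.4%. In COX2i + 5-AZA they were 5 and 3, against 6.06% and 18.2%, with a median of -1.54. S100a8, S100a9, Lcn2 and Wfdc21 were lower in all 3 libraries, both in the pooled classes and in Infl_Mono. As a set chosen for leading the inflammatory monocytes, the genes therefore included several that were higher in neutrophils.

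**Figure D3:**
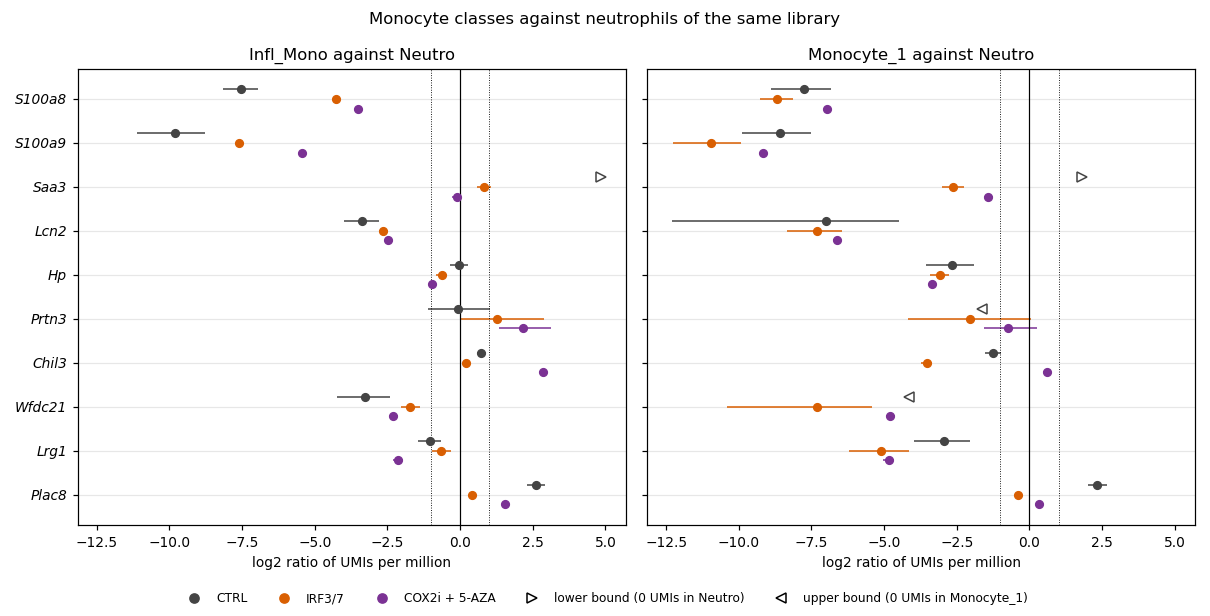
Log2 ratio of CPM of Infl_Mono (left) and Monocyte_1 (right) to Neutro of the same library with exact 95% intervals, for the 3 libraries with at least 20 Neutro cells. Triangles are bounds where 1 class had 0 UMIs, and dotted lines mark 2-fold. S100a8, S100a9, Lcn2 and Wfdc21 lie left of 2-fold in both panels in each library.

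Among the acute-phase genes, Lcn2 followed the neutrophils. It was at 619, 2467, 124 and 2987 CPM in Neutro and 59.9, 396, 40.9 and 536 CPM in Infl_Mono of CTRL, IRF3/7, COX2i and COX2i + 5-AZA. Infl_Mono was lower by 3.37, 2.64 and 2.48 on the log2 scale in the 3 libraries with enough neutrophils. Hp was close between the classes in CTRL, at 456 CPM in Infl_Mono and 466 in Neutro, and lower in Infl_Mono of COX2i + 5-AZA at 602 against 1166. Infl_Mono held 957 CPM of Hp in IRF3/7 and 432 in COX2i, against 1492 and 186 in Neutro. Lrg1 was at 198, 307, 54.0 and 166 CPM in Infl_Mono and 411, 482, 186 and 726 in Neutro. In CTRL, Macro, a macrophage class, held 448 CPM, and its interval overlapped that of Neutro.

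Saa3 did not follow the neutrophils. Neutro of CTRL had 0 Saa3 UMIs in 65 cells, and Infl_Mono was at 279 CPM, at least 4.84 higher on the log2 scale with 3 counts taken as the floor. IRF3/7 had 1426 CPM in Infl_Mono and 810.5 in Neutro, a log2 ratio of 0.82 (0.57 to 1.07). In COX2i + 5-AZA the classes were at 534 and 582 CPM, and the interval of their log2 ratio, -0.28 to 0.03, included 0. COX2i had only 34.4 CPM in Infl_Mono, and its 5 neutrophils held no Saa3 UMI, which allows up to 93.2 CPM at 3 counts. The Saa3 of CTRL rested on few cells, as 5 of 93 Infl_Mono cells held 89.6% of its 135 UMIs and 1 cell held 64. Macro of CTRL held a similar level, 317 CPM.

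Wfdc21, the protease inhibitor-like gene, was at 259, 452, 31.1 and 1127 CPM in Neutro and 26.8, 138, 13.1 and 230.0 in Infl_Mono. It was at least 2-fold higher in the neutrophils of each library with 20 or more of them. Prtn3 was low throughout, at 43.4, 70.2, 37.7 and 74.1 CPM in Infl_Mono. In Neutro it was at 45.3, 29.4, 0 and 16.7 CPM from 14, 5, 0 and 12 UMIs. Infl_Mono was higher by a log2 ratio of 2.15 (1.33 to 3.12) in COX2i + 5-AZA, while in CTRL the interval, -1.11 to 1.02, included 0. The 249 CPM of Prtn3 in TAM_cycling of IRF3/7 came from 38 UMIs in 1 of 20 cells.

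Chil3 and Plac8 were the abundant genes of Infl_Mono. Chil3 was at 2849.9, 5112, 2075 and 4886 CPM in Infl_Mono and 1723, 4458, 186 and 686 in Neutro. Infl_Mono was higher in every library, by a log2 ratio of 0.20 (0.09 to 0.30) in IRF3/7 and 2.83 (2.70 to 2.96) in COX2i + 5-AZA. TAM_Spp1, a macrophage class, also held 1449 CPM of Chil3 in CTRL. Plac8 was at 1931, 7938, 4442 and 6572 CPM in Infl_Mono and 317, 5967, 683 and 2257 in Neutro. It was not particular to monocytes, since NK cells (11 in CTRL, 50 to 568 elsewhere) held 1027 to 3374 CPM and cDC2 of IRF3/7 held 5242. In COX2i and COX2i + 5-AZA the highest Plac8 level was in Monocyte_3, at 6686 and 7841 CPM.

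Within the monocytes, most of the 10 genes were lower in Monocyte_1 than in Infl_Mono. In COX2i + 5-AZA, the library with most Monocyte_1 cells, S100a8 was at 326 against 3556 CPM, Lcn2 at 30.5 against 536 and Chil3 at 1031 against 4886. The smallest log2 difference there was that of Plac8, 1.20 (1.18 to 1.22), at 2859 against 6572 CPM. Saa3 of COX2i was higher in Monocyte_1, at 46.7 against 34.4 CPM, with an interval of -1.21 to 0.27 around the log2 ratio. S100a9 of CTRL was too, at 34.2 against 14.5 CPM, on 7 UMIs in each class. Set against the 6 macrophage classes together, 8 of 10 genes were at least 2-fold higher in the monocytes of CTRL, 10 in IRF3/7, 9 in COX2i and 10 in COX2i + 5-AZA. The shares of all tested genes were 6.54%, 7.26%, 6.06% and 4.08%, and the genes were chosen for leading a monocyte class, so nothing is read from these counts. In CTRL, S100a8 and S100a9 were the 2 genes short of 2-fold, at 49.1 against 44.8 CPM and 21.6 against 27.9 CPM.

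Across tumours, the monocytes of IRF3/7 held more of nearly every gene than those of CTRL. With the 3 monocyte classes together, 9 of 10 genes were at least 2-fold higher and none was lower, against 5.00% of all tested genes higher. The values that chose the genes come mostly from IRF3/7, so nothing is read from these counts against the share of all genes, here or within Infl_Mono. The tenth, Lrg1, had a log2 ratio of 0.93 (0.65 to 1.22). The median was 2.12, and that of all tested genes was -0.20. The classes differed in number between these libraries, so the same comparison was made within Infl_Mono, where 7 of 10 genes were at least 2-fold higher against 6.17% of all tested genes. There S100a8 was higher by 4.02 (3.46 to 4.65), Lcn2 by 2.72 (2.20 to 3.30), Wfdc21 by 2.36 (1.58 to 3.27), Saa3 by 2.35 (2.11 to 2.61) and Plac8 by 2.04 (1.95 to 2.13) on the log2 scale. Prtn3, Chil3 and Lrg1 had log2 ratios of 0.69, 0.84 and 0.63, short of 2-fold. With each cell thinned to 1000 UMIs, Hp turned to -0.12 within Infl_Mono, and Prtn3 turned to -0.15 over the 3 classes together.

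Several genes were also at higher levels in the neutrophils of IRF3/7. Of the 9 genes with enough UMIs, 5 were at least 2-fold higher than in Neutro of CTRL, against 9.37% of all tested genes, and these were Saa3, Lcn2, Hp, Chil3 and Plac8. The 8 macrophage markers summed to 35091 CPM in Neutro of CTRL, 7412 in IRF3/7 and 5046 in COX2i + 5-AZA, and their part in these differences was not tested. In CTRL, 4 of the 65 Neutro cells held 80.6% of the Plac8 and 66.7% of the Chil3 UMIs. In IRF3/7, 3 of the 49 Neutro cells held 66.7% of the Lcn2, 63.0% of the Saa3, 54.7% of the S100a8 and 41.8% of the Chil3 UMIs. The median count per cell was 1 for Lcn2 in both libraries and 20 for S100a8 in IRF3/7 against 26 in CTRL, whereas that of Plac8 was 18 against 0 and that of Chil3 5 against 0. Saa3 was at least 6.38 higher on the log2 scale, from 0 to 138 UMIs, and Plac8 was higher by 4.23 (3.93 to 4.55). S100a8 and S100a9 had log2 ratios of 0.75 and 0.59 in neutrophils, against 4.02 and 2.79 in Infl_Mono. Nothing is read from the gap between these ratios, because the genes were chosen on Infl_Mono that came mostly from IRF3/7, and the CTRL side rests on 25 and 7 UMIs at levels below those of Myofibrobl.

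In COX2i most of the genes were lower than in CTRL when the 3 monocyte classes were pooled. The monocytes of COX2i held 7 of 10 genes at least 2-fold lower than those of CTRL and none higher, against 3.87% of all tested genes lower. This was not particular to monocytes, since 8 of 10 were lower in the macrophages together, 9 of 10 in TAM_Spp1 and 4 of 6 tested in cDC2, against 4.78%, 3.17% and 1.43% of all tested genes. Lrg1 was lower by 3.18 (2.65 to 3.75) and Saa3 by 2.29 (1.90 to 2.67) on the log2 scale. The direction of Hp, Prtn3 and Saa3 did not hold under every alternative. Hp and Prtn3 turned to log2 ratios of 0.18 and 0.58 in cells with more than 2000 detected genes. For S100a9, subtracting the Myofibrobl level left nothing in the CTRL monocytes. Its log2 ratio of 0.41 is then a bound against 3 counts, and no direction is read from it. For Saa3, the log2 ratio was 4.46 in cells with more than 2000 detected genes and 1.65 in monocytes with no UMI of 6 neutrophil genes, and 5 cells held most of the Saa3 of CTRL. Monocyte_1 made up most of the COX2i monocytes and Infl_Mono most of those of CTRL, and within Infl_Mono 5 genes were at least 2-fold apart, against 7.65% of all tested genes. The lower ones were Saa3, at 34.4 against 279 CPM, Lrg1, at 54.0 against 198, and Wfdc21, on 8 and 13 UMIs. In cells with more than 2000 detected genes Lrg1 and Wfdc21 turned, with log2 ratios of 1.48 and 0.13, and thinned to 1000 UMIs Wfdc21 was at 0.52. S100a8 and Plac8 were higher, by log2 ratios of 1.71 (1.07 to 2.40) and 1.20 (1.09 to 1.31). Among monocytes with no UMI of 6 neutrophil genes (317 cells of COX2i and 42 of CTRL), only 1 of 10 genes was at least 2-fold lower and 3 were higher. With the same gate, 1 gene rather than 5 was at least 2-fold apart within Infl_Mono.

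Infl_Mono and Neutro of COX2i + 5-AZA had the highest alarmin levels of the 4 libraries. Against CTRL, 4 genes were at least 2-fold higher in the monocytes and 1, Lrg1, was lower, against 4.38% and 10.8% of all tested genes. Lrg1 turned to 0.46 in cells with more than 2000 detected genes, where 9 genes were apart in place of 5. Within Infl_Mono 5 were higher and none was lower, against 6.04%. There the number apart was 10 in cells with more than 2000 detected genes and 8 in monocytes with no UMI of 6 neutrophil genes. S100a9 was higher by 6.21 (5.17 to 7.52), S100a8 by 6.11 (5.54 to 6.73), Lcn2 by 3.16, Wfdc21 by 3.10 and Plac8 by 1.77 on the log2 scale. The CTRL side of the first 2 ratios rests on 7 and 25 UMIs, so their size has no firm base. It lay below Myofibrobl of CTRL, where 8 of 554 cells held most UMIs of both genes. Hp, Prtn3, Chil3 and Saa3 had log2 ratios from 0.40 to 0.94, and Lrg1 had -0.26 (-0.57 to 0.07). The comparisons of IRF3/7, COX2i and COX2i + 5-AZA with CTRL share the same 139 control monocytes.

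Against COX2i alone, 6 of 10 genes were at least 2-fold higher in the monocytes of COX2i + 5-AZA, against 3.18% of all tested genes. Within Infl_Mono 7 were, against 4.08%. Other classes had like counts, with 8 of 10 higher in the macrophages together, 8 of 10 in TAM_Spp1 and 5 of 5 tested in cDC2, against 4.89%, 3.12% and 3.44% of all tested genes. The 6 were S100a8, S100a9, Saa3, Lcn2, Wfdc21 and Lrg1, and Chil3 joined them within Infl_Mono at a log2 ratio of 1.24 (1.15 to 1.32). Monocyte_1, with 394 and 3640 cells, had the same 6 genes at least 2-fold higher, among them S100a9 from 3 to 1676 UMIs and S100a8 from 28.1 to 326 CPM. Hp, Prtn3 and Plac8 were short of 2-fold in both classes. The neutrophils of COX2i were too few for this comparison. Against Neutro of CTRL, those of COX2i + 5-AZA held 7 of 10 genes at least 2-fold higher and 2 lower, Chil3 and Prtn3, against 7.58% and 19.4% of all tested genes.

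**Figure D4:**
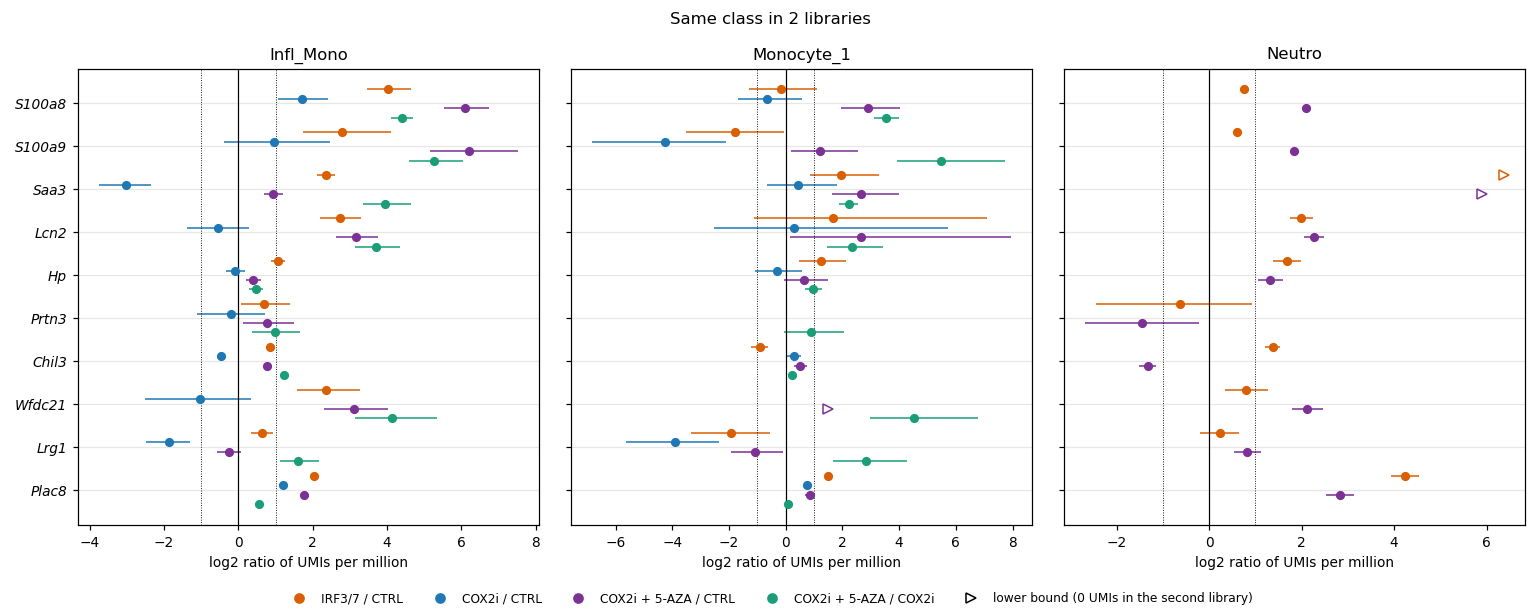
Log2 ratio of CPM between 2 libraries within Infl_Mono, Monocyte_1 and Neutro, with exact 95% intervals for counting error. Open triangles are lower bounds against 0 UMIs, and dotted lines mark 2-fold. S100a8 and S100a9 of Infl_Mono reach 6.11 and 6.21 in COX2i + 5-AZA over CTRL.

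Other cell types' markers moved with these differences. The 8 macrophage markers summed to 50768 CPM in Infl_Mono of CTRL, 9633 in IRF3/7, 17473 in COX2i and 6947 in COX2i + 5-AZA, and all 8 were detected in each. The 12 neutrophil markers summed to 1233, 3416, 822 and 1878 CPM in Infl_Mono, against 8199 to 23859.7 in Neutro. Of the 12, Ly6g and Retnlg were at 0 in Infl_Mono of CTRL, and Cxcr2, Ly6g and Retnlg in COX2i. In CTRL the sum of the 8 macrophage markers was 45534 CPM in all macrophages together, 46941 in Macro and 15698 in TAM_Spp1. By the macrophage markers the Infl_Mono of CTRL were thus not set apart from macrophages, which touches every comparison with Infl_Mono of CTRL. The 4 fibroblast or tumour markers summed to 235, 45.0, 293 and 66.2 CPM in Infl_Mono of CTRL, IRF3/7, COX2i and COX2i + 5-AZA, and all 4 were detected in each. The 4 NK markers were all at 0 in CTRL and COX2i and summed to 32.5 CPM in IRF3/7 and 17.0 in COX2i + 5-AZA. The part of these cell types in the differences between libraries was not tested. The 6 monocyte markers were detected in Infl_Mono of every library, at 4332 to 5391 CPM in sum, but Neutro held 2934 to 4880.5 CPM of them as well.

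The genes were also uneven between cells of 1 class. In Infl_Mono of IRF3/7 the 5% of cells richest in each gene, 217 cells, held 72.6% of the S100a8 UMIs and 93.2% of the S100a9 UMIs, but 27.8% of the Hp and 17.1% of the Plac8 UMIs. Median counts per cell there were 20 for Plac8, 2 for Chil3, 1 for Hp and 0 for the other 7. Plac8 was thus broad and the alarmin UMIs lay mostly in a minority of the cells.

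Cells with S100a8 also held more of the other genes. After thinning to 1000 UMIs, 739 Infl_Mono cells of IRF3/7 had an S100a8 UMI and 3596 had none, with median depths of 3548 and 2974 UMIs. Of the other 9 genes, 8 were at least 2-fold higher in the positive cells, against 2.11% of all tested genes. In COX2i + 5-AZA, with 336 positive and 428 negative cells, it was again 8 of 9, against 1.65%. The medians were 1.93 and 1.68 on the log2 scale, and those of all tested genes -0.12 and -0.03. Plac8 was the exception, at 0.35 and 0.44. Lcn2 was at 1456 CPM in positive and 139 in negative cells of IRF3/7, and Chil3 at 13012 and 3200.4 CPM.

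In the positive cells of IRF3/7, 4 of 5 precursor granule genes tested were at least 2-fold higher, against 2.11% of all tested genes. Cd63 was lower. In COX2i + 5-AZA 3 of 5 were higher, against 1.65%, and Cd63 was again lower. The granule protease gene Elane was at 20.6 against 2.02 CPM, and Fcnb, a ficolin of granules, at 21.6 against 3.12 CPM, in positive and negative cells of IRF3/7. Of the neutrophil markers, 4 of 10 were at least 2-fold higher in IRF3/7 and 4 of 11 in COX2i + 5-AZA. Their medians were 0.57 and 0.55 and none was 2-fold lower. Mmp8 was in both lists, so these counts share a gene. The neutrophil receptor gene Cxcr2 was at 34.2 against 6.66 CPM, and the neutrophil collagenase gene Mmp8 at 1107 against 326, but Cxcl2 was at 322 against 514 and Il1r2 at 969 against 886. Of the 8 macrophage markers, 5 were at least 2-fold lower in each library and none was higher, against 6.81% of all tested genes lower in IRF3/7 and 5.91% in COX2i + 5-AZA. The macrophage gene C1qa was lower in the positive cells, at 346 against 1610.4 CPM, and Apoe at 3168 against 6420 CPM. The same directions held for Elane, Fcnb, Cxcr2, Mmp8, C1qa and Apoe in COX2i + 5-AZA, where C1qa was at 287 against 2674 CPM. The neutrophil markers tested there ranged from -0.10 to 3.36 on the log2 scale. Ccr2, the chemokine receptor of inflammatory monocytes, was at 746 and 683 CPM in IRF3/7. The split was made on measured S100a8 in these cells, and the part of neutrophil RNA in the positive cells was not tested.

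**Figure D5:**
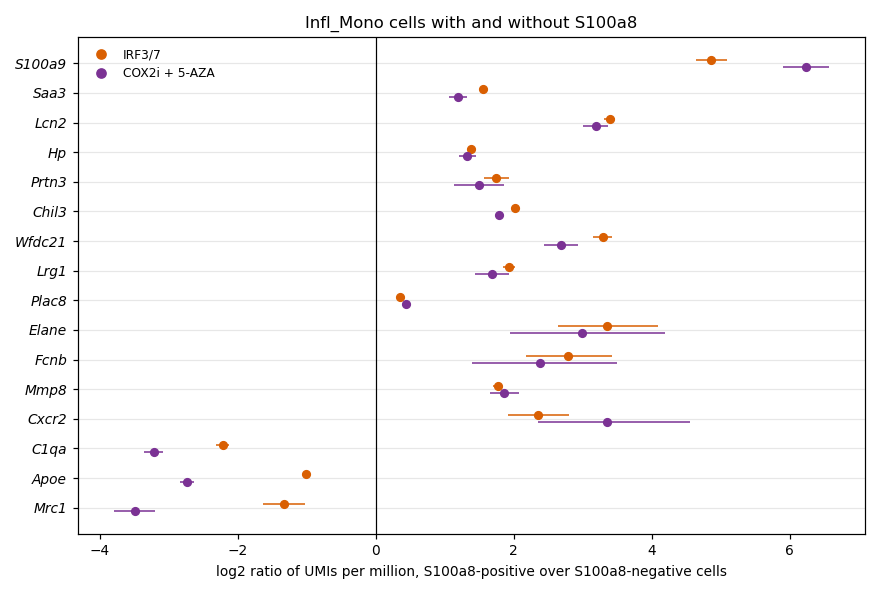
Log2 ratio of CPM in S100a8-positive over S100a8-negative Infl_Mono cells of IRF3/7 and COX2i + 5-AZA, with exact 95% intervals, for the other 9 genes, 2 granule genes, 2 neutrophil genes and 3 macrophage genes. Plac8 is the closest to 0 of the 9 genes, and the macrophage genes lie left of 0.

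Relatives of the 10 genes did not all behave alike in the comparison of IRF3/7 with CTRL, where 5.00% of all tested genes were at least 2-fold higher and 15.9% lower. Of the 10 other S100 genes in the table, 6 could be tested between the monocytes of IRF3/7 and CTRL and only S100a11, at 3456 against 1491 CPM, was at least 2-fold higher. Of 5 other acute-phase genes tested there, Cfb (complement factor B) and Steap4 (a metalloreductase) were at least 2-fold higher and Cp (ceruloplasmin) was lower, Cfb at 1215 against 257 CPM and the other 2 on 2 and 5 CTRL UMIs. Of 18 genes of the C/EBP and STAT3 axis, 4 were higher and none was lower, namely Cebpe, Csf3r, Bcl3 and Nfkbiz, and the median was 0.40. Csf3r, the receptor for G-CSF, was at 435 against 206 CPM. Of 13 receptors for alarmins or acute-phase proteins, Fpr1 and Fpr2 were higher and Cd33 and Cd36 lower, a share lower near that of all tested genes.

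The genes fell into several patterns over the 40 class-by-library sums with at least 50 cells. Among 8098 genes searched, those closest to S100a8 were S100a9, Lcn2 and Wfdc21, with Pearson r of 0.91, 0.90 and 0.88 on log2(CPM + 1). Closest to Saa3 were Ms4a8a, C3 and Cfb (0.85, 0.81 and 0.80). Closest to Hp were Slpi, Mmp8 and Chil3 (0.91, 0.90 and 0.87), and to Prtn3 they were Chil3, Cd177 and Hp (0.86, 0.83 and 0.82). The sums share 4 libraries and their depths, so these values only describe likeness.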

How the data were processed

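The deposited table held raw UMI counts per gene and cell, which the authors made with Cell Ranger 7.1.0 on mm10, as named in the submitters' processing notes, from a Chromium Flex assay (probe pairs ligated on RNA fixed for 22 h). Per the methods of the study, cells were kept above 1000 detected genes and under limits of mitochondrial and ribosomal reads, and genes were kept that occurred in several cells of each of its experiments, without ribosomal and mitochondrial genes. In the deposited table, counts showed 1201 cells with 1000 or fewer of the remaining genes. A table of text labels, also deposited by the authors, gave each cell's library and its class, which came from clustering these cells together with those of other experiments. The 34447 cells held 12584 genes, and UMI sums per cell equalled the deposited totals.

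UMIs were summed per class and library and divided by all UMIs of that sum (CPM). A fold was called at 2-fold, over genes with at least 20 UMIs in both groups together, and only for classes with at least 20 cells. Intervals were Poisson for CPM, Clopper-Pearson for shares and exact conditional for ratios, at 95%, and covered counting error only. A count of 0 was replaced by 3 counts as a bound. All 10 genes were described in every comparison. List genes named between 2 libraries were among the 4 with the largest absolute log2 ratio of their list. Those named in the split by S100a8 were not chosen by that rule. Likeness was ranked over genes with at least 200 UMIs and 50 CPM in 1 sum, with a pseudocount of 1. The genes, the 15 lists and the motifs were chosen with earlier results of these data known, and the S100a8 to S100a9 ratio, the split by S100a8 and the cells with at least 10 S100a8 UMIs were chosen after values were seen. Shares were compared after thinning each cell to 1000 UMIs, which left out 1 Myofibrobl cell of COX2i in the shares printed. No doublet caller was run. Alternatives were a marker gate, 2 scalings, equal weights per cell, a background subtraction, thinning, no UMI minimum, a cut at 2000 detected genes and, chosen after seeing the data, leaving out cells in droplets shared between libraries or the 5% of cells with the most UMIs. Scripts used Python 3.11.15, NumPy 2.4.6 and SciPy 1.17.1 and were tested on simulated data. Gene positions came from GENCODE on GRCm38, the build of the files. The genes closest in pattern to Plac8 are not reported here.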

Additional observations from a re-analysis of the deposited data

Results flagged for a closer look

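Over the pooled monocyte classes, Saa3 went opposite ways between monocytes and neutrophils in 2 libraries. In CTRL the 3 monocyte classes together were at 205 CPM and Neutro at 0 UMIs, a log2 ratio of at least 4.40. In COX2i + 5-AZA they were at 263 and 582 CPM, a log2 ratio of -1.14 (-1.29 to -0.998). Infl_Mono made up 93 of the 139 monocytes of CTRL, and Monocyte_1 3640 of the 4684 of COX2i + 5-AZA. Within Infl_Mono of COX2i + 5-AZA the log2 ratio was -0.12, and its interval of -0.28 to 0.03 included 0. In Neutro of that library 10 of 196 cells held 74.2% of the Saa3 UMIs. The difference between these ratios was not tested, because each library is 1 sample.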

How the results depend on the processing

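Each of 15 counts of 2-fold genes was recomputed under up to 10 alternatives, and 141 of 147 recomputed counts stayed within 1.5 times the value reported. A marker gate kept only monocytes with no UMI of Cxcr2, Hdc, Csf3r, Ly6g, Retnlg or Mmp8. Csf3r was detected in monocytes, so the gate can also leave out monocytes without neutrophil RNA. Under it, genes at least 2-fold apart between monocytes of COX2i and CTRL were 4 rather than 7 (3 higher, 1 lower). Those apart in Infl_Mono were 1 rather than 5 for COX2i against CTRL, and 8 rather than 5 for COX2i + 5-AZA against CTRL. Those higher in CTRL monocytes than in macrophages were 3 rather than 8. The gate left 42 CTRL monocytes, 25 of them Infl_Mono. In cells with more than 2000 detected genes, the genes apart in COX2i + 5-AZA against CTRL were 9 rather than 5 over all monocytes and 10 rather than 5 in Infl_Mono.

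Leaving out cells in shared droplets, or the 5% of cells with the most UMIs, moved no count beyond 1.5 times. Of 1455 recomputed log2 ratios of single genes, 530 moved beyond the counting interval of the value reported, and besides these 13 of those past 2-fold turned sign. Among cells with more than 2000 detected genes those that turned were Saa3 (4.46), Hp (0.18) and Prtn3 (0.58) in monocytes of COX2i against CTRL, Lrg1 in monocytes of COX2i + 5-AZA against CTRL (0.46), Wfdc21 (0.13) and Lrg1 (1.48) in Infl_Mono of COX2i against CTRL, and Saa3 in CTRL monocytes against macrophages (-2.24). Under the marker gate Saa3 turned in COX2i against CTRL (1.65) and against macrophages of CTRL (-0.35). Thinned to 1000 UMIs, Prtn3 (-0.15, all monocytes) and Hp (-0.12, Infl_Mono) turned in IRF3/7 against CTRL, and Wfdc21 in Infl_Mono of COX2i against CTRL (0.52). With the Myofibrobl level subtracted, S100a9 turned in monocytes of COX2i against CTRL (0.41). There the CTRL level lay below the level subtracted, so 0.41 is a bound against the floor and not a measured turn. All 13 involve CTRL monocytes, of which there were 139, and the cause was not tested. The gate could not be applied to neutrophils of CTRL and IRF3/7, nor the cut at 2000 genes to those of IRF3/7, as fewer than 20 cells were left. No paired analysis was possible because each group is 1 library.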

Other observations

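Most UMIs of several genes lay outside the monocytes where macrophages were numerous. In CTRL, where macrophages were 83.5% of the cells, they held 87.8% of all Chil3 UMIs and 86.5% of all Saa3 UMIs, and monocytes, 1.55% of the cells, held 7.99% and 12.6%. In IRF3/7, where monocytes were 72.6% of the cells, they held 96.9% and 95.9%. Neutrophils were few but held many of the S100a9 UMIs. In CTRL they held 58.9%, with 22.1% in macrophages and 15.7% in Myofibrobl, and in COX2i the 5 Neutro cells held 24.5% and macrophages 59.0%. The 49 Neutro cells of IRF3/7, 0.774% of that library, held 64.6% of its S100a9 UMIs but 16.1% of its S100a8 UMIs. In COX2i + 5-AZA, 196 Neutro cells held 82.6% and 54.5%.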
